A study of Mus musculus with 8 samples.

Results

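The costimulatory receptors of the tumour necrosis factor (TNF) family and their ligands were followed at the transcript level in EL4, a lymphoma line of mouse T cells, after stimulation. The 10 genes were chosen by name from 54146 genes: the receptor genes Tnfrsf4, Tnfrsf18, Tnfrsf9, Cd27, Tnfrsf1b and Fas, and the ligand genes Tnfsf8, Tnfsf14, Tnfsf11 and Cd40lg. The choice was made with earlier results of these data known. Of the 10 genes, 9 were among the 14791 genes with enough counts to be tested, and Cd40lg was not. The study asked how T-bet acts on GATA3 and its target genes, and measured RNA in 4 lines of EL4 cells. The series holds 2 libraries of each line, 8 in all, while a figure legend of the paper gives a larger number of replicates. The GFP + Plum line expressed only fluorescent control proteins, GFP and Plum. The T-bet + Plum line carried FLAG-tagged T-bet and Plum, the GFP + GATA3 line GFP and HA-tagged GATA3, and the T-bet + GATA3 line both tagged factors. Every line received 50 ng/ml of the phorbol ester PMA and 1 μM ionomycin, a calcium ionophore, for 4 h, so no unstimulated level was available. Each line was a retrovirally transduced, drug-selected population of a cell line that expresses its own Gata3. According to the methods, the replicates were harvests of the same line on different days, and the tests therefore measure the spread between harvests and not between independently made lines.

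T-bet is the transcription factor that defines TH1 cells and GATA3 the factor that defines TH2 cells. TNF family ligands are trimeric proteins of the cell surface, and their binding clusters the receptors. Receptors such as OX40, GITR, 4-1BB and CD27 have no death domain, recruit TRAF adaptor proteins and signal to NF-kB, which prolongs the division and survival of T cells that have met antigen. Fas in contrast carries a death domain and can start apoptosis. Several of the ligands are made by activated T cells themselves and act on dendritic cells, B cells or osteoclast precursors.

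The libraries held between 8038565 and 16003519 estimated counts, and 3 counts, used as the detection floor, corresponded to between 0.187 and 0.373 CPM. CPM values are counts scaled to the library size and serve to compare libraries. The floors use the plain library total, and all other CPM values use the total scaled by TMM normalization. TPM values also account for transcript length and serve to compare genes. Tbx21, which encodes T-bet, was at 52.4 to 70.2 TPM in the libraries with tagged T-bet and at 0.755 to 1.72 TPM in the others. Gata3 was at 262.6 and 300.0 TPM in GFP + GATA3, at 164 and 138.0 TPM in T-bet + GATA3, and at 11.4 to 27.6 TPM in the lines without tagged GATA3. The GATA3 level thus differed between the lines with tagged GATA3. Of 9 T cell markers, 6 reached 1 TPM in every library (Cd3d, Cd3e, Cd3g, Thy1, Lck and Trbc2). Cd4, Cd247 and Trbc1 did not. NK cell markers summed to at most 0.257 TPM, and Ncr1 had no count in any library. Myeloid markers summed to 2.50 to 5.26 TPM, mostly Cd68. A change called below passed an FDR of 0.05 in the edgeR quasi-likelihood test over all genes tested.

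In the GFP + Plum line the genes spanned a wide range of levels. Tnfsf11 was at 127 and 154 TPM, Cd27 at 110.2 and 123.5 TPM, Tnfsf8 at 86.3 and 68.4 TPM, and Tnfrsf9 at 91.7 and 36.5 TPM. These 4 genes were each above 30 TPM in both libraries, and the values of Tnfsf8 and Tnfrsf9 overlapped. Tnfsf14, Tnfrsf4 and Tnfrsf18 lay between 1.44 and 17.2 TPM. Tnfrsf4 overlapped each of the other two, and both Tnfsf14 values were above both of Tnfrsf18. Fas, Tnfrsf1b and Cd40lg were the lowest within each library, at 1.56 TPM or less, although the values of Fas and Tnfrsf18 overlapped.

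With T-bet, 5 of the 9 genes tested rose without GATA3 and 5 rose with it, and none fell. Tnfrsf4, Tnfrsf18, Tnfsf8 and Tnfsf14 were common to both, Tnfrsf1b passed only in the comparison without GATA3, and Tnfsf11 only in the comparison with it, where Tnfrsf1b was just short of the threshold. Over all genes tested, 6.2% passed without GATA3 (T-bet + Plum against GFP + Plum), and 4.04% passed as higher with T-bet. With GATA3 (T-bet + GATA3 against GFP + GATA3) 5.77% passed, 3.73% as higher. The median log2 fold change of the 9 genes was 1.60 without GATA3 and 2.08 with it, against 0.01 over all genes tested in both comparisons. These comparisons share no library, although their spread was estimated in the same fit. With a log2 fold change above 1.5 in size also required, 5 genes remained without GATA3, where 3.02% of all genes did, and 4 remained with GATA3, where 2.85% did. In 5 of the 9 genes all 4 libraries with T-bet were above all 4 without by CPM, as in 12.5% of all genes tested. The genes were chosen with earlier results of these data known, so their excess over all genes is not an independent finding.

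**Figure D1:**
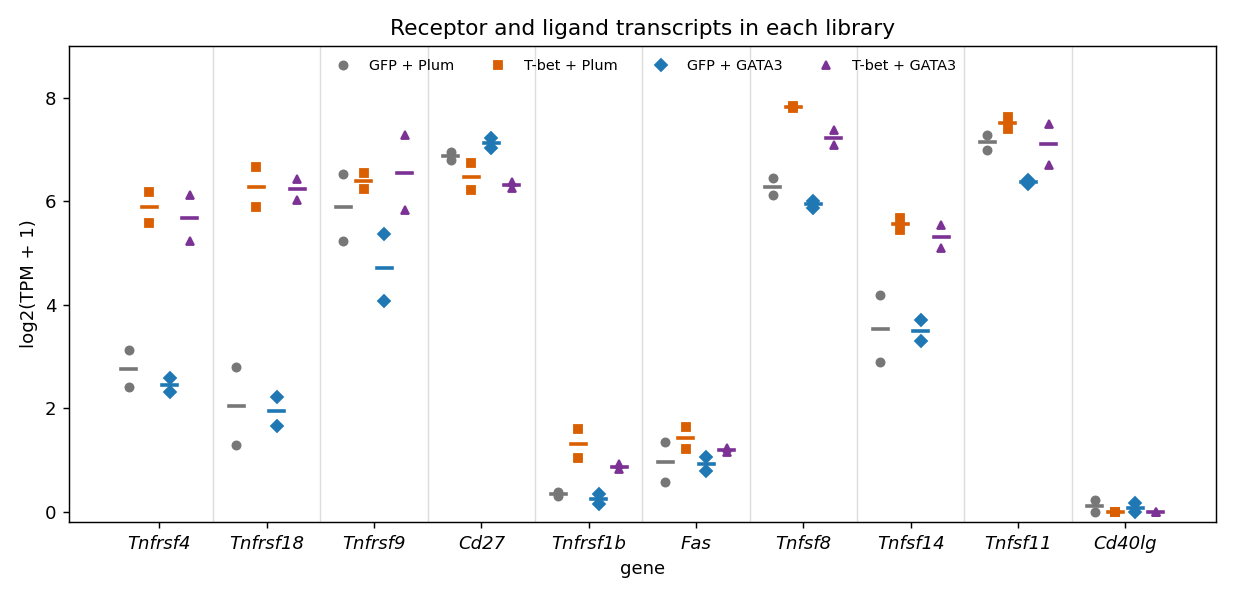
Levels of the 10 genes in each library, as log2(TPM + 1) on the vertical axis. Points are the 2 libraries of each line, with colour and shape for the line, and bars are their means. Tnfrsf4, Tnfrsf18, Tnfrsf1b, Tnfsf8 and Tnfsf14 were higher in all 4 libraries with T-bet than in the 4 without.

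Tnfrsf4 encodes OX40, a receptor that appears on T cells after activation. It was at 7.74 and 4.32 TPM in GFP + Plum, 71.7 and 47.0 TPM in T-bet + Plum, 4.97 and 3.98 TPM in GFP + GATA3, and 68.7 and 36.4 TPM in T-bet + GATA3. The lowest library with T-bet was above the highest without it. The rise was 11.3-fold without GATA3, a log2 fold change of 3.51 (SE 0.43, edgeR adjusted p = 0.00313), and 15.8-fold with GATA3, a log2 fold change of 3.98 (SE 0.45, adjusted p = 0.00226). Both passed when any of the 8 libraries was left out. The 3 annotated transcripts contributed unequally: the only protein-coding transcript, of 1030 bases, held 47.3% and 49.1% of the gene's TPM in GFP + Plum, 60.95% and 77.2% in GFP + GATA3, and 70.4% to 84.6% in the libraries with T-bet. Counting that transcript alone, the levels were 3.66 and 2.12 TPM in GFP + Plum against 59.4 and 35.9 TPM in T-bet + Plum. In GFP + GATA3 it was at 3.84 and 2.42 TPM, against 58.1 and 25.6 TPM in T-bet + GATA3.

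Tnfrsf18 encodes GITR, a receptor best known from regulatory T cells and also induced on activated effector cells. It was at 5.998 and 1.44 TPM in GFP + Plum and at 100.2 and 58.3 TPM in T-bet + Plum. With GATA3 alone it was at 2.15 and 3.68 TPM, and with both factors at 85.3 and 64.5 TPM. Again the groups with and without T-bet did not overlap. The rise was 21.3-fold without GATA3 (log2 fold change 4.41, SE 0.47, edgeR adjusted p = 0.00161) and 27.6-fold with GATA3 (log2 fold change 4.78, SE 0.49, adjusted p = 0.00145). These were the largest fold changes among the 9 genes, and both passed with any library left out. The counts in lines without T-bet were low, between 19 and 69 per library, and the 95% interval of the log2 fold change was wide, from 3.34 to 5.48 without GATA3 and from 3.66 to 5.91 with it. Of the 6 annotated transcripts 3 are protein-coding, and these together held 45.9% to 59.3% of the TPM in the libraries with T-bet. Most of the remainder was assigned to a processed transcript of 615 bases. The antisense gene Gm16008 overlaps Tnfrsf18 and had between 1.38 and 7.0 counts per library.

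Tnfrsf4 and Tnfrsf18 are neighbours on mouse chromosome 4 (GRCm38, plus strand). Tnfrsf4 lies at chr4:156013843-156016612 and Tnfrsf18 at chr4:156026164-156028895, 9551 bases downstream. Their 300-base promoter windows, from 250 bases before to 50 after the RefSeq start site, are shown because the genes lie side by side and rose together with T-bet. They lie at chr4:156013445-156013744 and chr4:156026072-156026371 in GRCm38.p6, both on the plus strand. The Tnfrsf4 window ends before the Gencode start of the gene given above. Its first part lies within the neighbouring gene Sdf4, which ends at chr4:156013610. The third window, at chr17:57194132-57194431 on the minus strand, belongs to Tnfsf14 and is the only window with an AP-1 motif among the 4 genes that rose in both comparisons. Capitals mark an NFAT motif (GGAAAA, read on the other strand) in Tnfrsf18 and an AP-1 motif (TGANTCA) in Tnfsf14.
Tnfrsf4: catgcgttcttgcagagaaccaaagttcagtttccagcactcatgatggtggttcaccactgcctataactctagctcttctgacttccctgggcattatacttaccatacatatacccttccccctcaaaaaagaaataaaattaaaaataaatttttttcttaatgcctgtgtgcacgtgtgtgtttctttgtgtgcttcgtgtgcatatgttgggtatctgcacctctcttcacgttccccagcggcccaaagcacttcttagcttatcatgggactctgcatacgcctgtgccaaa
Tnfrsf18: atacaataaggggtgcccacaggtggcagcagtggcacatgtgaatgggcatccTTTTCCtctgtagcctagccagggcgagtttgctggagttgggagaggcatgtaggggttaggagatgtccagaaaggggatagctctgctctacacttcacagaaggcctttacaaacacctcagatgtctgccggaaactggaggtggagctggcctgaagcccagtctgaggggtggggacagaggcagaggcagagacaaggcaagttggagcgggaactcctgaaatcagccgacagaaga
Tnfsf14: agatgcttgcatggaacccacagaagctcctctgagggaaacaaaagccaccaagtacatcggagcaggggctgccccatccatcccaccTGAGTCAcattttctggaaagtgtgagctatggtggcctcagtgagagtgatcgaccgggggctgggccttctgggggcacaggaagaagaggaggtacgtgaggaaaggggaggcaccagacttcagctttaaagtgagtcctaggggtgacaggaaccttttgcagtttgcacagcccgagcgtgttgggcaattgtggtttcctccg

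On both strands of the windows available for 9 of the 10 genes, 10 windows in all, neither the T-box core GGTGTGA nor the GATA motif AGATAA was present. Among all 32851 RefSeq promoter windows of this length, 3.98% held the T-box core and 11.2% the GATA motif. The AP-1 motif was found in 3 of the 10 windows (Tnfrsf9, Tnfsf14 and Fas), against 7.81% of all windows, and the NFAT motif in 4 (Tnfrsf9, Tnfrsf18, Cd27 and Fas), against 23.4%. The letters GGANTTTCC, a narrow form of the NF-kB motif, were in none, against 1.25% of all windows, and other forms of that motif were not searched. In Tnfsf14 the AP-1 motif stood at -160 to -154 with the start site as 0, and in Tnfrsf18 the NFAT motif at -196 to -191. These matches describe letters in a short window, and no binding was measured here.

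The change around Tnfrsf4 was limited to few genes. Within 200 kb of its start, 13 other protein-coding genes were tested. Sdf4, which ends 232 bases before Tnfrsf4 begins and encodes a calcium-binding protein of the Golgi, was at 89.0 to 132 CPM in every library. Its log2 fold change was 0.30 without GATA3 and 0.45 with it (edgeR adjusted p = 0.192 and 0.06). Isg15, an interferon-stimulated gene 187.0 kb away, was the only other gene in the window to pass without GATA3, with a log2 fold change of 1.92 (adjusted p = 0.0239), and it did not pass with GATA3 (1.52, adjusted p = 0.0514). None of the 13 passed with GATA3. Agrn had log2 fold changes of 1.60 and 2.94, which did not pass (adjusted p = 0.254 and 0.0929).

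**Figure D2:**
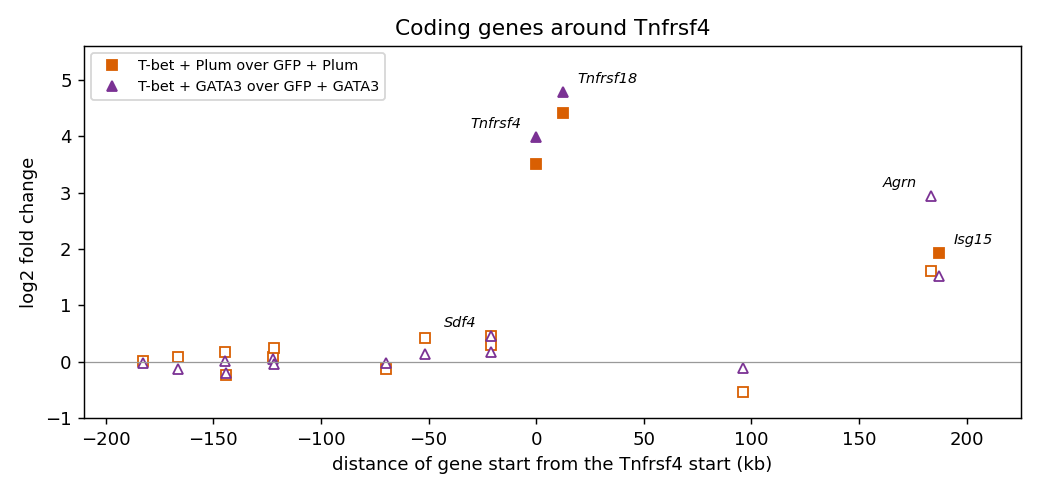
Log2 fold change with T-bet for the coding genes tested within 200 kb of the Tnfrsf4 start, against the distance of their start sites in kb. Squares are the comparison without GATA3 and triangles the one with GATA3, and filled symbols passed the test. Tnfrsf4 and Tnfrsf18 stand between 3.51 and 4.78, and Sdf4 stands at 0.45 or less.

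Tnfrsf9 encodes 4-1BB, a costimulatory receptor best known from activated CD8 T cells. Its level varied widely between harvests, at 91.7 and 36.5 TPM in GFP + Plum, 92.5 and 74.2 TPM in T-bet + Plum, 40.1 and 15.8 TPM in GFP + GATA3, and 153 and 55.7 TPM in T-bet + GATA3. The first library was the higher in every line, and lines overlapped except GFP + GATA3 with the lines carrying T-bet. The log2 fold change with T-bet was 0.53 without GATA3 (95% interval -0.88 to 1.93, edgeR adjusted p = 0.709) and 2.28 with it (0.79 to 3.76, adjusted p = 0.0879). Without the second T-bet + GATA3 library the latter was 2.86, and without the first it was 1.16. It was 3.07 without the first GFP + GATA3 library and 1.74 without the second. With all libraries and no filter on low counts it passed at an unchanged 2.28 (edgeR adjusted p = 1.5e-30). The fold change did not move, so this call is not read as added support. The difference between the effects, an interaction of 1.75 on the log2 scale, did not pass (95% interval -0.27 to 3.77, unadjusted p = 0.0805). Camta1 overlaps Tnfrsf9 on the opposite strand, with 119.0 to 199.0 counts per library.

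Cd27 encodes a receptor that naive T cells already carry, and it was the only gene tested with a negative log2 fold change in both comparisons with T-bet. It was at 110.2 and 123.5 TPM in GFP + Plum, 73.0 and 105.9 TPM in T-bet + Plum, 129 and 148 TPM in GFP + GATA3, and 75.7 and 82.3 TPM in T-bet + GATA3. By TPM the 4 libraries with T-bet were below the 4 without, but by CPM they overlapped. The log2 fold changes of -0.36 (95% interval -0.83 to 0.12, edgeR adjusted p = 0.401) and -0.60 (-1.08 to -0.13, adjusted p = 0.15) did not pass. With no filter on low counts, the latter passed as a fall at an unchanged fold change (-0.60, edgeR adjusted p = 0.0115), which is not read as added support. Vamp1 overlaps Cd27 on the opposite strand, with 345 to 695.8 counts per library, and whether the counting used strand was not given in the sources used here.

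Tnfrsf1b encodes TNFR2, the receptor for TNF found mainly on lymphocytes, and was low throughout. It was at 0.236 and 0.313 TPM in GFP + Plum and at 1.06 and 2.02 TPM in T-bet + Plum, from 11 and 18 against 30 and 105 counts. It was at 0.116 and 0.270 TPM in GFP + GATA3 and at 0.893 and 0.766 TPM in T-bet + GATA3. The 4 libraries with T-bet were above the 4 without. It rose without GATA3, by a log2 fold change of 2.59 (SE 0.49, edgeR adjusted p = 0.0205), and the log2 fold change of 2.22 with GATA3 did not pass (SE 0.53, adjusted p = 0.0505). The former did not pass without the first GFP + Plum library (2.27, adjusted p = 0.0733) or without the second T-bet + Plum library (2.02, adjusted p = 0.171). The latter passed without the first GFP + Plum library (2.20, adjusted p = 0.0449) or the second (2.21, adjusted p = 0.0454). With all libraries it also passed in DESeq2 (adjusted p = 0.0231), with scaling by library size only (0.0489) and with transcript length offsets (0.0499). It did not pass with RLE normalization (edgeR adjusted p = 0.0529) or with limma on log2(TPM + 1) (log2 fold change 0.62, limma adjusted p = 0.14). The log2 fold change with GATA3 was 1.80 without the first GFP + GATA3 library and 3.00 without the second. With no filter it passed at an adjusted p of 0.000106 in edgeR, which is not read as added support.

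Fas, the death receptor, had 8 to 20 counts per library. It was at 1.56 and 0.491 TPM in GFP + Plum, 2.10 and 1.31 TPM in T-bet + Plum, 1.07 and 0.736 TPM in GFP + GATA3, and 1.35 and 1.23 TPM in T-bet + GATA3. By TPM the lines overlapped, except GFP + GATA3 with the lines carrying T-bet. The log2 fold changes with T-bet of 0.86 (95% interval -0.44 to 2.15, edgeR adjusted p = 0.466) and 0.27 (-1.04 to 1.59, adjusted p = 0.854) did not pass. At this depth changes of the size seen in Tnfsf8 lay within these intervals.

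Tnfsf8, which encodes the ligand of CD30, was the most precisely measured of the genes that rose. It was at 86.3 and 68.4 TPM in GFP + Plum and at 229 and 222.5 TPM in T-bet + Plum. In GFP + GATA3 it was at 57.6 and 63.6 TPM and in T-bet + GATA3 at 166 and 134 TPM. Every library with T-bet was above every library without it. The rise was 3.03-fold without GATA3 (log2 fold change 1.60, SE 0.17, edgeR adjusted p = 0.00163) and 2.84-fold with GATA3 (1.505, SE 0.17, adjusted p = 0.00218), and both passed with any library left out.

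Tnfsf14 encodes LIGHT, a ligand of HVEM and of the lymphotoxin beta receptor. It was at 6.40 and 17.2 TPM in GFP + Plum, 42.6 and 50.3 TPM in T-bet + Plum, 8.85 and 12.0 TPM in GFP + GATA3, and 33.0 and 45.6 TPM in T-bet + GATA3. The 4 libraries with T-bet were the 4 highest, and the GFP + Plum libraries differed most from each other. The rise was 3.96-fold without GATA3 (log2 fold change 1.99, SE 0.43, edgeR adjusted p = 0.0337) and 4.24-fold with GATA3 (2.08, SE 0.44, adjusted p = 0.03). Each call rested on nearly all libraries. Without GATA3 it was kept when either GFP + Plum library was left out (log2 fold change 1.39 without the first and 2.99 without the second) and lost without any other library, at adjusted p-values of 0.0501 to 0.189 and log2 fold changes of 1.85 to 2.10. With GATA3 it was likewise kept only when a GFP + Plum library was left out, and otherwise lost at 0.0627 to 0.183.

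Tnfsf11 encodes RANKL, the ligand that drives osteoclast formation and supports dendritic cells. It was at 127 and 154 TPM in GFP + Plum, 196 and 167 TPM in T-bet + Plum, 83.6 and 79.4 TPM in GFP + GATA3, and 103 and 179.7 TPM in T-bet + GATA3. The GFP + GATA3 libraries were the lowest of the 8, and the T-bet + GATA3 libraries overlapped both lines without tagged GATA3. The log2 fold change with T-bet was 0.40 without GATA3 (95% interval -0.11 to 0.92, edgeR adjusted p = 0.38), which did not pass, and 0.96 with GATA3 (SE 0.23, adjusted p = 0.0493), which did. The latter call was lost without either GFP + GATA3 library (1.00, adjusted p = 0.195 without the first, 0.92, adjusted p = 0.268 without the second), without the second T-bet + GATA3 library (0.57, adjusted p = 0.188) and without either T-bet + Plum library (0.96 in both, adjusted p = 0.0884 and 0.09). It was also lost with RLE normalization (0.95, adjusted p = 0.0533), with scaling by library size only (0.88, adjusted p = 0.0617) and with limma on log2(TPM + 1) (0.73, adjusted p = 0.163).

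Cd40lg, the CD40 ligand of helper T cells, was at or below the detection floor. It had 3 counts in the second GFP + Plum library, 2 in the second GFP + GATA3 library and 0 in the other 6, and no fold was computed. A count of 0 allows a level of up to 0.373 CPM in the shallowest library. The floors cover counting error only.

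**Figure D3:**
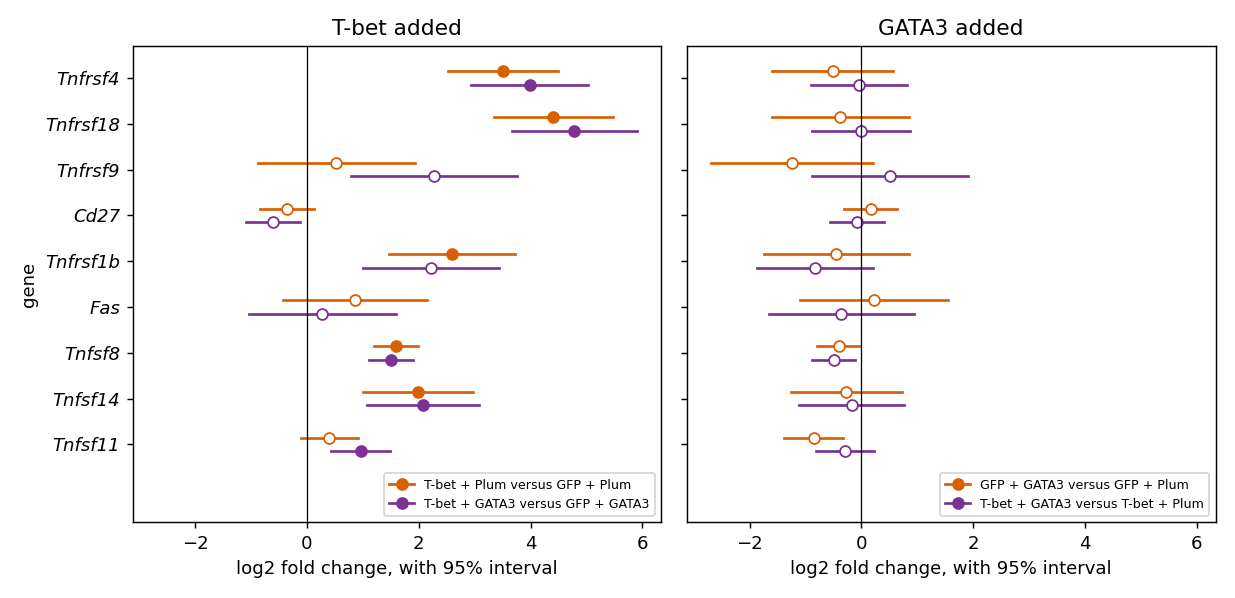
Log2 fold changes of the 9 genes tested on the horizontal axis, with T-bet added on the left and GATA3 added on the right. Lines are 95% intervals, and filled points passed the edgeR test at an FDR of 0.05. With T-bet 5 genes passed in each comparison, and with GATA3 none did.

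With GATA3 added, none of the 9 genes passed, either in GFP + GATA3 versus GFP + Plum, where 0.0203% of all genes tested did, or when T-bet + GATA3 was set against T-bet + Plum, where 0.0338% did. At an unadjusted p below 0.05 there were 2 and 1 of the 9, and DESeq2 likewise called none in either. These were Tnfsf11 in the line without T-bet (log2 fold change -0.86, 95% interval -1.38 to -0.33, unadjusted p = 0.00528, edgeR adjusted p = 0.676) and Tnfsf8 in both (-0.40, interval -0.79 to -0.02, and -0.50, interval -0.88 to -0.12). The median log2 fold change of the 9 was -0.40 and -0.17, against 0.00 over all genes tested in both. For Tnfrsf4 the intervals ran from -1.60 to 0.57 without T-bet and from -0.89 to 0.82 with it. For Tnfrsf18 they ran from -1.61 to 0.85 and from -0.88 to 0.87. Changes within these intervals were not excluded with 2 libraries per line.

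The T-bet + GATA3 line was also compared with GFP + Plum, whose libraries serve in other comparisons above. Tnfrsf4, Tnfrsf18 and Tnfsf8 rose, 3 of the 9 genes, where 4.87% of all genes tested passed and 3.44% passed as higher. Their log2 fold changes were 3.47, 4.41 and 1.10 (edgeR adjusted p = 0.0036, 0.00178 and 0.00929). Tnfsf14 had a log2 fold change of 1.82 and did not pass (adjusted p = 0.0537). The interaction of T-bet and GATA3 passed for none of the 9 genes, at an unadjusted p below 0.05 for none, and for 0% of all genes tested by edgeR, and DESeq2 called none of the 9. Its 95% interval ran from -0.90 to 1.86 for Tnfrsf4, from -1.13 to 1.88 for Tnfrsf18, from -0.63 to 0.45 for Tnfsf8 and from -1.27 to 1.46 for Tnfsf14. The interval was thus narrow for Tnfsf8 and allowed several-fold differences for the other genes.

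The cognate partners of these genes were followed in the same libraries. Of 13 receptor and ligand pairs, 3 had both partners at 1 TPM or more in both libraries of GFP + Plum, 7 in T-bet + Plum, 3 in GFP + GATA3 and 5 in T-bet + GATA3. The pairs of Tnfrsf4, Tnfrsf9 and Tnfsf8 counted in every line. Both lines with T-bet added Tnfrsf14 with Tnfsf14 and Fas with Fasl, and T-bet + Plum added Tnfrsf1b with Tnf and with Lta. Tnfrsf14, Fas and Tnfrsf1b lay near 1 TPM in some lines, so these counts depend on the cut. Tnfsf4, the OX40 ligand, was at 14.3 and 6.81 TPM in GFP + Plum and at 4.54 and 4.39 TPM in T-bet + Plum, a log2 fold change of -1.17 that did not pass (edgeR adjusted p = 0.117). With GATA3 it was at 12.3 and 14.9 TPM without T-bet and at 10.1 and 6.17 TPM with it (log2 fold change -0.55, adjusted p = 0.448). Tnfsf9, the ligand of 4-1BB, was at 8.91 to 27.0 TPM with log2 fold changes of 0.37 and 0.50 that did not pass (adjusted p = 0.675 and 0.547). Tnfsf18, the GITR ligand, had 10 and 3 counts in GFP + Plum and at most 1 in any other library. Cd70, the ligand of CD27, had at most 1 count in any library, so neither ligand was detected above the floor where its receptor stood above 50 TPM.

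Other partners changed with T-bet. Fasl, the Fas ligand, rose from 0.651 and 0.976 TPM in GFP + Plum to 9.44 and 10.7 TPM in T-bet + Plum (log2 fold change 3.31, edgeR adjusted p = 0.000513), and from 0.647 and 0.503 TPM in GFP + GATA3 to 5.13 and 6.34 TPM in T-bet + GATA3 (3.29, adjusted p = 0.000688). Tnf, a ligand of TNFR2, stood at 242 and 206 TPM in GFP + Plum and at 310 and 360 TPM in T-bet + Plum, with log2 fold changes of 0.63 without GATA3 and 0.91 with it (adjusted p = 0.0216 and 0.00478). Lta, the lymphotoxin gene, did not pass (0.58 and 0.84, adjusted p = 0.353 and 0.188). Tnfrsf14, which encodes HVEM and pairs with LIGHT, rose from 1.01 and 0.662 TPM to 4.01 and 4.37 TPM without GATA3 (log2 fold change 2.41, adjusted p = 0.015) and from 1.24 and 0.621 TPM to 2.96 and 3.27 TPM with it (1.89, adjusted p = 0.0444). Ltbr, which encodes the other LIGHT receptor, had 1 count in 1 library and 0 in the other 7. Tnfrsf8, which encodes CD30, was at 1.75 to 4.43 TPM and rose without GATA3 (1.00, adjusted p = 0.0192) but did not pass with it (0.65, adjusted p = 0.0844). Tnfrsf11a and Cd40, which encode the receptors for RANKL and for the CD40 ligand, had at most 12.4 and 9.65 counts per library, and Tnfrsf11b, a decoy receptor for RANKL, had 0 counts in every library, under the floor of 3 counts.

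Across the wider family, a few genes rose with T-bet and none fell by this test. Of 22 other TNF receptor genes 13 were tested. Tnfrsf8, Tnfrsf1a and Tnfrsf14 rose without GATA3, and Tnfrsf14 and Tnfrsf19 with it. Tnfrsf1a, which encodes the death domain receptor for TNF and lies in the same cluster on chromosome 6 as Cd27, had log2 fold changes of 1.80 (edgeR adjusted p = 0.0138) and 1.01 (adjusted p = 0.104), the latter short of the threshold. Of 14 other ligand genes 9 were tested, and Fasl, Tnf and Tnfsf10, which encodes the apoptosis-inducing ligand TRAIL, rose in both comparisons. Tnfsf10 had log2 fold changes of 2.98 and 3.08 (adjusted p = 0.0203 and 0.0221). Tnfsf15, next to Tnfsf8 on chromosome 4, had negative log2 fold changes of -1.64 and -2.39 that did not pass (adjusted p = 0.191 and 0.0568). The median log2 fold change was 0.19 and -0.21 over the 13 receptors and 0.58 and 0.51 over the 9 ligands, without and with GATA3. Negative log2 fold changes were seen in 6 and 7 of the 13 receptors and in 2 and 4 of the 9 ligands. At an unadjusted p below 0.05 in edgeR, in either direction, there were 5 and 7 of the receptors and 5 and 5 of the ligands.

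**Figure D4:**
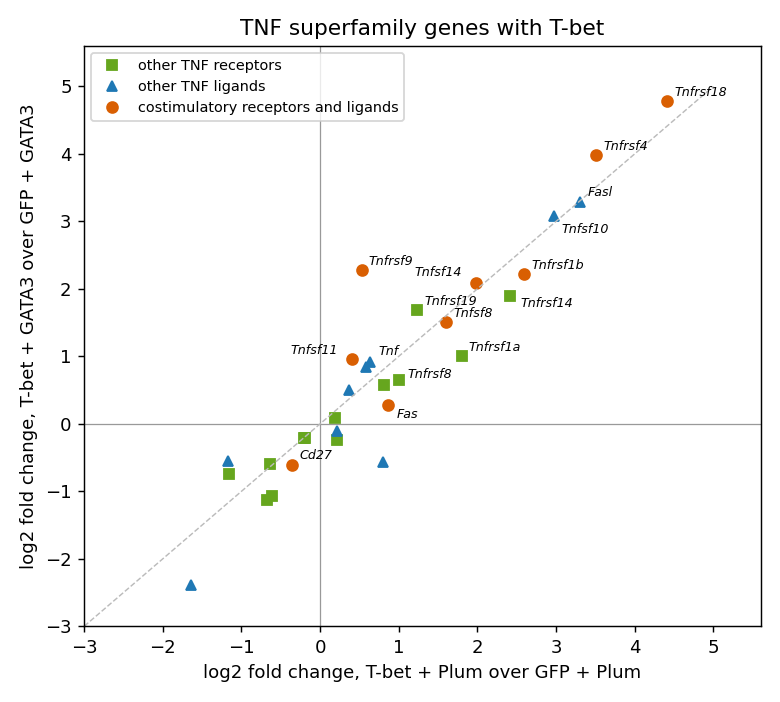
Log2 fold change with T-bet for the TNF superfamily genes tested, without GATA3 on the horizontal axis and with GATA3 on the vertical axis. Circles are the costimulatory receptors and ligands, squares other receptors, triangles other ligands, and the dashed line marks equal values. Tnfrsf18 and Tnfrsf4 stand at the upper right, with log2 fold changes of 3.51 or more on both axes.

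Among the adaptors and signal transducers, Traf1, Traf5 and Map3k14 were higher by CPM in all 4 libraries with T-bet. Over all genes tested, 12.5% were higher in this way. Casp8 was lower in all 4 and did not pass. Traf1 and Traf5, which encode TRAF proteins, did not pass either. Traf1 had log2 fold changes of 1.56 and 1.74 (edgeR adjusted p = 0.0959 and 0.0756) and Traf5 of 1.35 and 1.29 (adjusted p = 0.117 and 0.14), and both genes were named after their values were seen. Of 15 genes for TRAF proteins and other signal transducers, all tested, only Map3k14, the kinase of the non-canonical NF-kB pathway, passed without GATA3 (log2 fold change 0.80, edgeR adjusted p = 0.0389) and none passed with GATA3. At an unadjusted p below 0.05 there were 5 of the 15 without GATA3 and 4 with it. Among 6 costimulatory receptors outside the TNF family, 5 were tested. Cd2 and Crtam rose in both comparisons, with log2 fold changes of 3.48 and 2.54 for Cd2 (adjusted p = 0.000376 and 0.00166) and of 3.67 and 3.97 for Crtam (adjusted p = 0.0138 and 0.0107). Cd226 rose without GATA3 (adjusted p = 0.0198), from 1 count in each GFP + Plum library to 12 and 43 counts in T-bet + Plum. With GATA3 added, no gene of these lists passed in edgeR. At an unadjusted p below 0.05 there were 3 of the 9 other ligands without T-bet and 4 with it, 1 and 0 of the 13 other receptors, none of the adaptors, and 1 and 1 of the receptors outside the family.

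Some markers moved with T-bet as well. The 9 T cell markers summed to 2999 to 3628 TPM in the libraries with T-bet and to 2068 to 2613 TPM in those without. Most of each sum was Trbc2. Its mean was 1778 TPM in GFP + Plum and 1645 TPM in GFP + GATA3, against 2744 TPM in T-bet + Plum and 2490 TPM in T-bet + GATA3. Lck, a kinase of T cell receptor signalling, and Cd3d, a subunit of that receptor, rose without GATA3 (log2 fold change 1.79 and 0.52, edgeR adjusted p = 0.0358 and 0.0498). By CPM, Cd3d, Lck and Trbc2 were higher in every library with T-bet than in any without, and the other T cell markers overlapped. Mean CPM of Thy1 was 291 in GFP + Plum and 218 in T-bet + Plum, and of Cd3g 77.5 and 76.0. Cd3e, Cd247, Cd4 and Trbc1 had higher means in T-bet + Plum. The stromal and epithelial markers, nearly all Pecam1, summed to 1.57 to 2.64 TPM with T-bet and 3.42 to 7.47 TPM without. The part of these differences in the results above was not tested. In these bulk libraries, more cells with a transcript and more transcript per cell cannot be told apart.

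For each of the 4 genes that rose in both comparisons, the protein-coding genes tested whose log2 CPM followed it most closely are given. They serve as a description over the 8 libraries. The libraries share the T-bet contrast, and the correlations carry no test. For Tnfrsf4 they were Serpinb6b, Ulk2 and Rnf213, with Pearson's r of 0.998, 0.995 and 0.990. For Tnfrsf18 they were Cd36, Sp4 and RP23-14F5.7 (0.994, 0.994 and 0.992). For Tnfsf8 they were Il1rap, Fhod1 and Nsun4 (0.993, 0.991 and 0.990), and for Tnfsf14 Fbxw7, Erap1 and Prex1 (0.991, 0.988 and 0.987). Tnfrsf4 and Tnfrsf18 had an r of 0.986 with each other.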

How the data were processed

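RNA-seq libraries of 8 stimulated EL4 samples were analysed, from 4 lines with 2 libraries each. Polyadenylated RNA was sequenced as paired reads of 100 bases. The authors used FastQC and Trim Galore to check and trim the reads, and kallisto with a Gencode transcriptome (GRCm38) to estimate transcript abundance. The file labels and the methods name different Gencode releases, and the strand setting was not given in the sources used here. The authors deposited estimated counts and TPM for 136535 transcripts per library, without pooling. The deposited TPM sum to the same total in every library. A near-identical copy of a transcript can share reads with it.

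Estimated counts and TPM were summed per gene by the symbol in the transcript identifier, and the counts were rounded. edgeR 4.0.16 in R 4.3.3 was run on all 8 libraries in 1 fit. Low genes were dropped with filterByExpr, library sizes were scaled by TMM, and p-values of the quasi-likelihood test were adjusted by Benjamini-Hochberg over 14791 genes. The fit left 4 residual degrees of freedom. Passing meant an FDR of at most 0.05. CPM used TMM-scaled library sizes. Standard errors were derived from the log2 fold change and the F statistic. Positions come from Gencode M21 and promoter windows from RefSeq, both on GRCm38. The 10 genes, the lists and the marker genes were chosen with earlier results of these data known. From the lists, the cognate partners and the genes that passed are named. The neighbours are those of the genomic clusters holding these genes. Isg15, Agrn, Lck, Cd3d, Traf1, Traf5 and Casp8 were named after their values were seen.

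The libraries of each line were compared over the genes tested, and their chi-square per degree of freedom was 9.95 to 30.4, above counting noise, so none was a copy. Alternatives were DESeq2 1.42.0, RLE normalization, scaling by library size, no filter, at least 10 counts in every library, transcript length offsets, limma 3.58.1 on log2(TPM + 1), a replicate block, a fold threshold and each library left out. The test was checked on simulated data. The result of 1 marker list is not reported here. Python 3.11.15 was used for tables and figures.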

Additional observations from a re-analysis of the deposited data

How the results depend on the processing

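Tnfrsf4, Tnfrsf18 and Tnfsf8 passed in both comparisons with T-bet under all 8 alternatives and all 8 fits that left out a library. Of 284 alternative values of single fold changes with T-bet, 248 kept their direction and side of the threshold, 23 lost and 12 gained a call, and 1 reversed, the log2 fold change of Fas with GATA3 without the second GFP + GATA3 library (-0.11, in a range up to 0.70 over the libraries left out). The 5 genes passing with GATA3 became 3 with limma on log2(TPM + 1) and 8 with no filter or with the replicate block, under both of which Tnfrsf9 and Tnfrsf1b rose and Cd27 fell (with the block, adjusted p = 0.00422, 0.0237 and 0.0388). No filter gave 2 genes in GFP + GATA3 versus GFP + Plum, 6 in T-bet + GATA3 versus GFP + Plum and 1 in the interaction. For Tnfrsf18 with GATA3 it gave an edgeR adjusted p of 2.36e-77 against 0.00145, at the same log2 fold change of 4.78. The calls gained with no filter are therefore not read as added support. The replicate block gave 5 in T-bet + GATA3 versus GFP + Plum. The cause was not tested. Leaving out a library gave 3 to 5 genes without GATA3 (3 without the second T-bet + Plum library), 3 to 6 with it (3 without either GFP + GATA3 or either T-bet + Plum library), 3 to 4 in T-bet + GATA3 versus GFP + Plum and 0 in the other comparisons. A fit with 1 library in a line assumes that it varies like the other lines, and has fewer degrees of freedom. limma shifted the median of all genes by -0.18 with GATA3. The labels do not say whether same-numbered libraries shared a harvest day. Their deviations correlated between -0.05 and 0.30 across lines, so the block was not taken as a pairing. Depth limits Fas, Tnfrsf1b and Cd40lg, with at most 20, 105.0 and 3 counts.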
